A study of Mus musculus with 40 samples.

Results

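The effect of pioglitazone (Pio), a thiazolidinedione drug that activates the nuclear receptor PPARγ, on liver RNA was compared between mice on a control diet and mice on a high-fat diet (HFD). The comparison used 20 of the 40 liver samples of the study, namely all of the wild-type (WT) mice, which fell into 4 groups of 5. These were male C57BL6/J mice aged 5 months, fed the diets from the age of 2 months, that carried neither the floxed Pparg allele nor the Alb-Cre transgene, and they were fed control diet (control), control diet with Pio (Pio), HFD (HFD) or HFD with Pio (HFD-Pio). The other 20 mice, in which Cre driven by the albumin promoter removes Pparg from hepatocytes (KO), received the same 4 regimens and were used only to ask whether the diet dependence differed between the genotypes. The WT mice came from a supplier of the inbred strain, while the KO mice were bred from the floxed and Alb-Cre lines. For each gene, the Pio effect is the log2 ratio of Pio-treated to untreated mice on 1 diet, and the value reported is the effect on HFD minus the effect on control diet, so a negative difference means that Pio raised the RNA less, or lowered it more, on HFD.

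PPARγ pairs with RXR receptors on DNA, and in liver it promotes the uptake, binding and storage of fatty acids. Cholesterol made in hepatocytes through the mevalonate pathway is under the control of the transcription factor SREBP2, and part of it is turned into bile acids. The first and rate-limiting step of the classical route to bile acids is carried out by CYP7A1, an enzyme of hepatocytes whose gene is repressed by bile acids through FXR and SHP and follows the daily clock.

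Libraries held 15789401 to 49860981 counts, and levels are given as counts per 1000000 (CPM). A filter that asked for 1 CPM or more in 5 or more mice was passed by 12447 of 40335 genes. All 8 hepatocyte markers passed it, and their summed level was 72967 to 141539 CPM in the 20 mice. WT control mouse 832, WT HFD mouse 829 and WT Pio mouse 845 stood apart from the rest on the first 3 principal components. In mouse 845 the 10 most abundant genes held 36.3% of the counts, against 15.8% as the lowest share. Each library was 1 mouse, and no batch of sequencing or dissection was given in the labels.

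Cyp7a1 was the single gene whose Pio effect differed between the diets by edgeR's quasi-likelihood test at an adjusted p of at most 0.05, which is 0.00803% of the genes tested, with 0 genes higher and 1 lower. Counts of called genes are those of edgeR at this threshold unless another tool is named. DESeq2 called 135 genes (1.09%, 0.885% lower and 0.201% higher), limma with sample weights 840 (6.75%, 3.03% lower and 3.72% higher) and limma without sample weights 3, all lower (0.0241%). On control diet Pio mice had 4.97 times the Cyp7a1 RNA of control mice, while on HFD they had 0.589 times that of mice without the drug. The difference was -3.08 on the log2 scale (standard error 0.40, 95% interval -3.92 to -2.24, adjusted p = 0.00223), so that the ratio on HFD was 0.118 of the ratio on control diet. Cyp7a1 (ENSMUSG00000028240) lies on the minus strand of chromosome 4, from 6265612 to 6275633 of GRCm38, and overlaps no other annotated gene.

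Cyp7a1 was measured at 7.49, 7.59, 18.1, 10.2 and 8.99 CPM in the 5 control mice. In Pio mice it was at 39.1, 80.0, 54.3, 38.3 and 47.0 CPM. In HFD mice it was at 58.8, 62.5, 21.6, 40.9 and 63.9 CPM, and in HFD-Pio mice at 34.4, 30.6, 20.1, 33.9 and 26.7 CPM. Every control mouse lay below every mouse of the other groups, and every Pio mouse lay above every HFD-Pio mouse, while the HFD mice overlapped both groups given Pio. Group means were 10.5 ± 4.41 (SD, n = 5), 51.7 ± 17.1, 49.5 ± 18.1 and 29.2 ± 5.91 CPM in the order control, Pio, HFD and HFD-Pio. The control group stood farthest from the others, with a mean log2 level of -2.21 relative to the median of the other 3 group means. Either treatment alone thus went with a level several times that of control mice, HFD by a log2 ratio of 2.25 and Pio by 2.31, and both together gave a level between control and either one. On the scale of CPM itself, where the effects are subtracted and not divided, the difference was -61.7 CPM (standard error 11.6), of the same sign. In bulk liver, fewer cells of a type and less RNA per cell cannot be told apart.

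**Figure D1:**
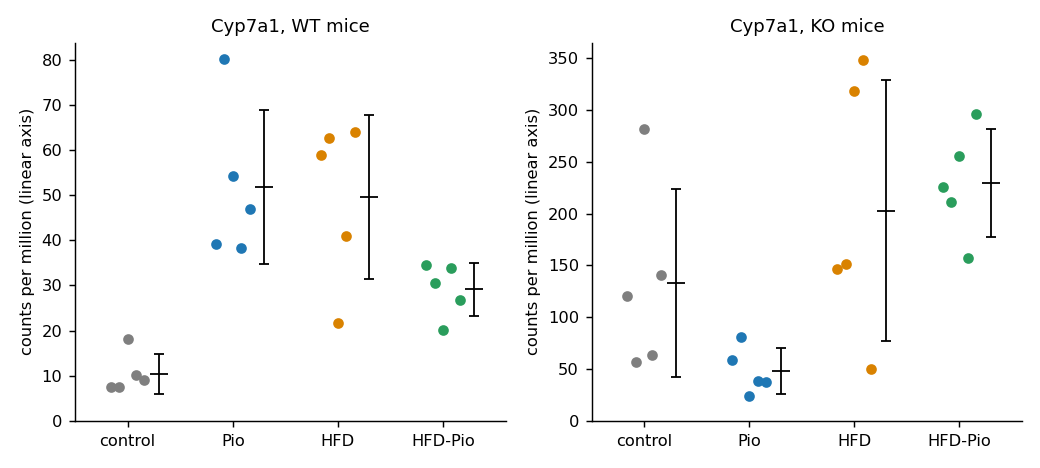
Cyp7a1 RNA in CPM on linear axes that start at 0 and differ between the panels, for WT mice on the left and KO mice on the right. Each point is a mouse (5 in each group), and the bar beside the points is the mean with its SD. The 5 WT control mice reach 18.1 CPM at most, while the other 15 WT mice lie at 20.1 CPM or more.

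The call of Cyp7a1 was kept in all 31 alternative analyses, with differences of -3.36 to -2.86 when each mouse was left out in turn and adjusted p-values between 4.51e-10 and 0.0353. Without the 3 libraries that stood apart it was -3.10. Levels of daily clock genes varied among the same mice. Dbp, a clock-driven transcription factor with sites in the Cyp7a1 promoter, was at 5.01, 2.39, 3.96, 5.81 and 19.8 CPM in control mice and at 46.6, 35.0, 32.3, 37.6 and 38.1 CPM in Pio mice. In HFD mice Dbp was at 8.43, 4.74, 4.29, 51.0 and 30.4 CPM, and in HFD-Pio mice at 35.7, 27.8, 17.8, 30.4 and 33.3 CPM. The control and Pio groups did not overlap in Dbp, and the HFD mice spanned nearly the whole range. HFD mice 826, 827 and 828, with the lowest Dbp of their group, had 58.8, 62.5 and 21.6 CPM of Cyp7a1, and mice 829 and 830, with the highest, had 40.9 and 63.9 CPM.

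Over the 21 genes listed for the core clock and its output, 0 were called by edgeR, 13 had a negative difference and the median was -0.27, against a median of 0.02 over all genes tested. Hlf, a clock-output factor related to Dbp, had a difference of -1.37 (adjusted p = 0.193), and Per2, a repressor in the clock loop, one of -1.26 (adjusted p = 0.213). Arntl, the activator that peaks at the opposite time of day, had a difference of 0.51 (adjusted p = 0.401). Without the 3 libraries that stood apart, the median over the clock genes was 0.11. Limma with sample weights called 2 of the 21, Hlf as lower (-0.95, adjusted p = 0.0298) and Nfil3, a repressor that opposes Dbp, as higher (0.85, adjusted p = 0.0306). The same fit called 6.75% of all genes. The part of the clock genes in the result for Cyp7a1 was not tested.

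Of the 28 genes listed for bile acid synthesis and transport, 26 were tested, and Cyp7a1 was the 1 that was called by edgeR, DESeq2 and limma without sample weights. Limma with sample weights called 4 of the 26, where it called 6.75% of all genes. Cyp7a1 and Slc10a1 were lower (-0.84, adjusted p = 0.0470 for Slc10a1). Abcb11 (0.63, adjusted p = 0.0298) and Csad, an enzyme of taurine synthesis (1.05, adjusted p = 0.0264), were higher. The median of the list was 0.07, and 12 of the 26 differences were negative (46.2%), against 48.1% of all genes. The other synthetic enzymes had smaller differences. Cyp8b1, the sterol 12-alpha-hydroxylase that sets the share of cholic acid, was at 82.4 to 482 CPM in control, 398 to 677 in Pio, 643 to 790 in HFD and 415 to 691 in HFD-Pio mice, a difference of -0.96 (standard error 0.41, adjusted p = 0.272). The lowest control value was that of mouse 832, with the other control mice at 358 CPM or more. The difference of Cyp8b1 was -1.11 to -0.72 with each mouse left out. The 2 enzymes of the alternative route, Cyp27a1 and Cyp7b1, had differences of -0.11 (95% interval -0.77 to 0.55), which changed sign in 4 alternative analyses, and of 0.28 (-0.78 to 1.35). Among transporters, in edgeR, Slc10a1, which takes bile acids up from blood, had a difference of -0.93 (adjusted p = 0.300), and Abcb11, the export pump to bile, one of 0.53 (adjusted p = 0.259). For Slc10a1 control mouse 832 was at 163 CPM and the other control mice at 749 or more, and the difference was -1.04 to -0.69 with each mouse left out.

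The receptors through which bile acids repress Cyp7a1 were measured in the same livers. Nr1h4, which encodes FXR, had a difference of -0.48 (95% interval -0.97 to 0.02, adjusted p = 0.333). Nr0b2, which encodes SHP, was at 22.7 to 81.1 CPM in control, 29.8 to 73.9 in Pio, 45.4 to 103 in HFD and 66.4 to 127 in HFD-Pio mice, a difference of 0.34 (-0.55 to 1.22, adjusted p = 0.723). Neither gene was called by edgeR, and neither DESeq2 nor either limma fit called them. Fgfr4 and Klb, the receptor and co-receptor for the intestinal hormone FGF15, had differences of -0.04 (adjusted p = 0.932) and 0.35 (adjusted p = 0.564).

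**Figure D2:**
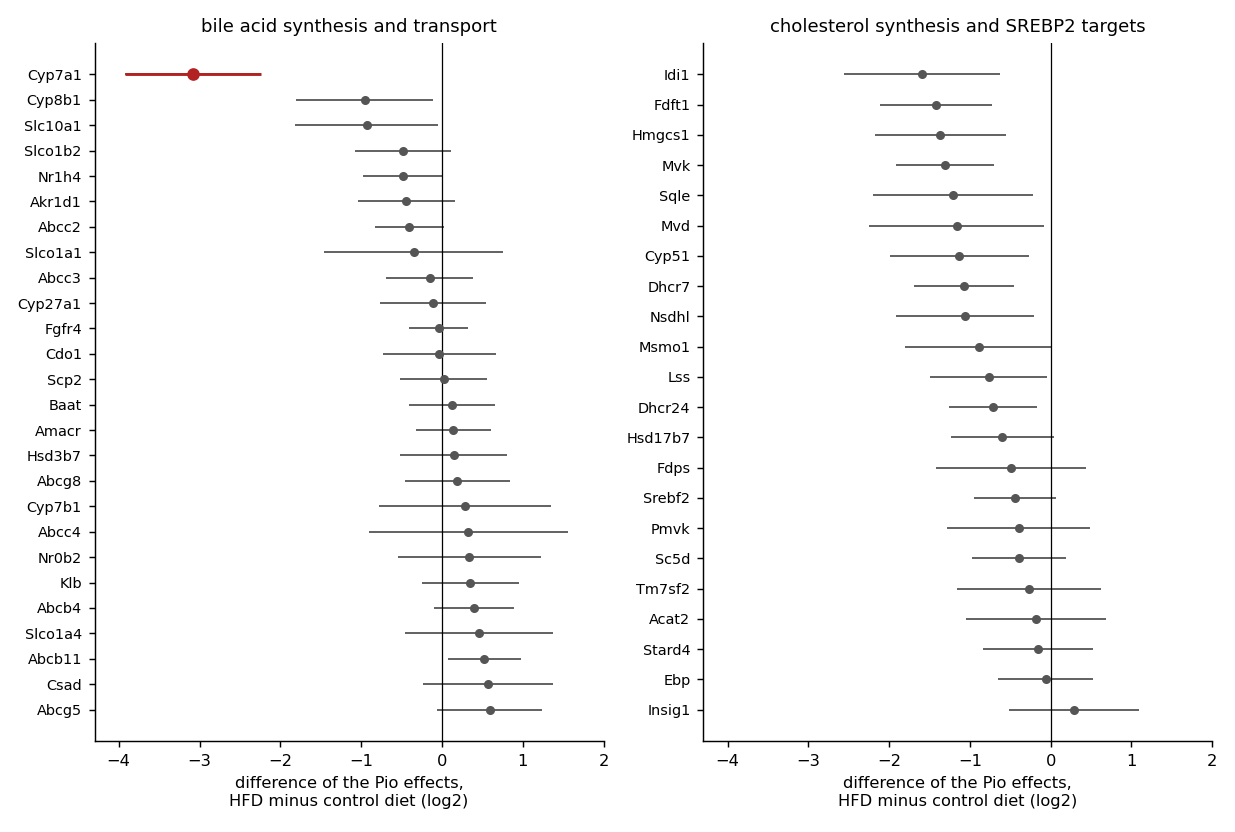
The difference of the Pio effects between the diets (log2, HFD minus control diet) for each tested gene of bile acid synthesis and transport (left, 26 genes) and for 22 of the 25 of cholesterol synthesis (right), with 95% intervals from edgeR. The gene called by edgeR, Cyp7a1, is in red at -3.08, and 21 of the 22 genes on the right lie below 0.

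At an adjusted p of at most 0.1 there were 10 genes, all with a negative difference, and the 9 beside Cyp7a1 were chosen for naming after their values were seen. Bhmt, which remethylates homocysteine with betaine in the liver, came closest to the threshold, with -1.63 (standard error 0.28, adjusted p = 0.0607). It was at 69.9, 115, 120, 116 and 143 CPM in control mice and at 549, 456, 407, 361 and 276 CPM in Pio mice. In HFD mice it was at 293, 290, 372, 348 and 310 CPM, and in HFD-Pio mice at 498, 398, 251, 357 and 392 CPM. Every control mouse lay below every other mouse, as for Cyp7a1, and the other 3 groups overlapped. Bhmt (ENSMUSG00000074768, chromosome 13, 93616675 to 93637961 of GRCm38, minus strand) passed the threshold in 12 of the 31 alternative analyses, among them DESeq2 and limma with and without sample weights.

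Because LRH-1 (Nr5a2) is a known activator of Cyp7a1, the letters TCAAGGNCA of its half-site were searched on both strands of the RefSeq promoter windows of GRCm38.p6, which run from 250 bases before to 50 after each gene's start. They occurred in 1.62% of 32851 promoters, in 0 of the 26 promoters held for the bile acid list and in Bhmt, at -75 from its RefSeq start. No promoter window was held for Cyp7a1, so its own promoter was not searched. The RefSeq start of Bhmt differs from the GENCODE one, and by the GENCODE coordinates given above the stretch lies inside the gene. The stretch is printed with these letters in capitals, 5′ to 3′ on the strand of the gene, chr13:93637815-93637843, minus strand.
Bhmt: tgaccccagaTCAAGGTCAgaggcctgct

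The other 8 genes at this level do not belong to 1 pathway by their known roles. Mmab, which attaches the adenosyl group to vitamin B12, had a difference of -1.30 (adjusted p = 0.0878), and Cyp2j6, a cytochrome P450 of fatty acids, one of -0.93 (adjusted p = 0.0878). Snrnp70, a protein of the U1 splicing particle, had -1.06, Ythdc1, a nuclear reader of methylated adenosine in RNA, -1.13, and Pkig, an inhibitor of protein kinase A, -1.22. Swi5, a factor of recombination repair, had -1.03 and R3hcc1 had -1.39. The last of them, Gm26684, had -1.98, and it lies on the strand opposite to Enpp2, so that reads of the pair cannot be told apart without strand. Snrnp70 ranged from 88.5 to 102 CPM in control, 98.5 to 159 in Pio, 97.4 to 153 in HFD and 65.5 to 92.1 in HFD-Pio mice. The HFD-Pio group lay below every Pio and HFD mouse for Snrnp70. For Pkig the HFD-Pio mice (16.0 to 18.0 CPM) likewise lay below every Pio mouse (18.7 to 42.6 CPM) and every HFD mouse (23.0 to 32.5 CPM).

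**Figure D3:**
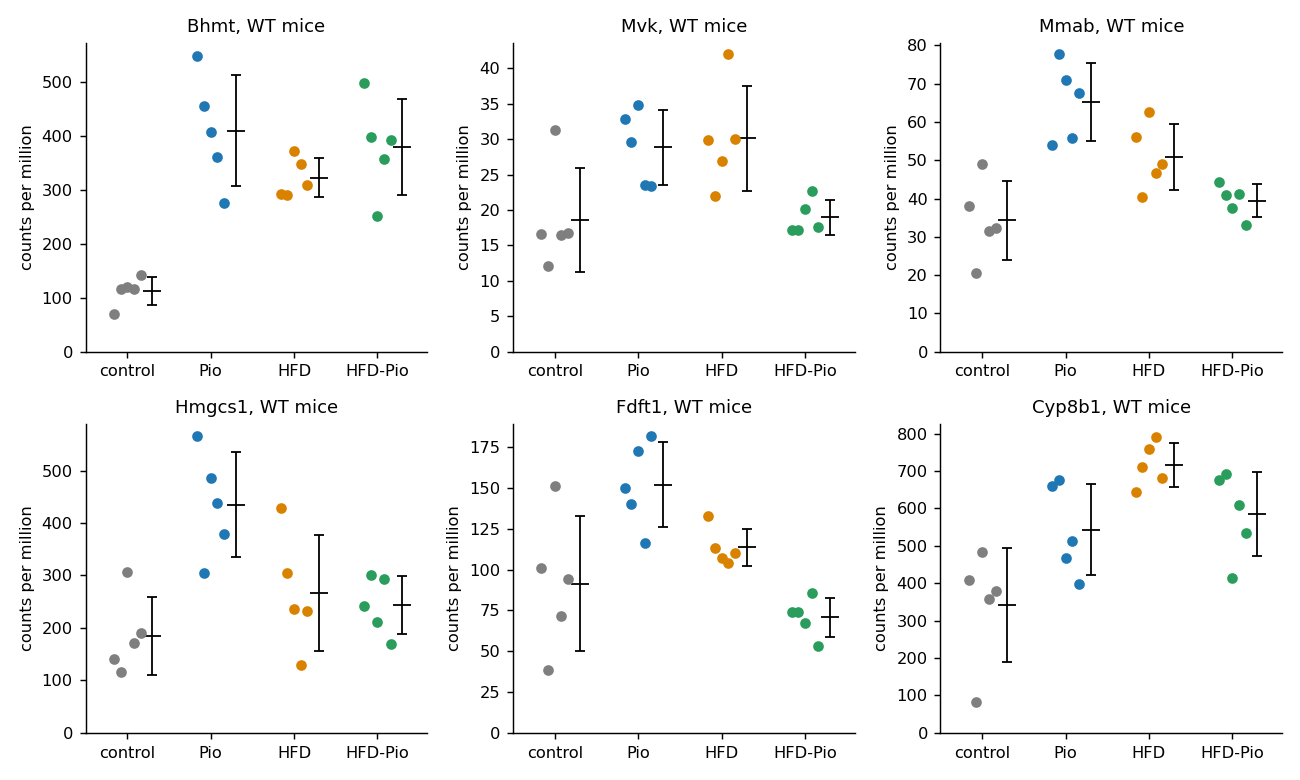
Levels of 6 genes in CPM on linear axes from 0, by mouse (points) with the mean and SD of each group of 5 (bars), in WT mice. Bhmt is lowest in control mice (143 CPM at most, against 251 or more elsewhere), and Hmgcs1, Mvk, Mmab and Fdft1 have their higher values in Pio mice or, for Mvk, in Pio and HFD mice.

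Estimates for the genes of cholesterol synthesis lay almost all below 0, although none passed the threshold in edgeR. Of the 25 genes listed for cholesterol synthesis and as SREBP2 targets, all were tested and 0 were called by edgeR. The difference was negative in 24 of 25 (96.0%, against 48.1% of all genes), and the median was -0.71. An unadjusted p under 0.05 was reached by 12 members, all lower, where 8.23% of all genes tested were lower and 7.38% higher at that level. The median Pio effect over the list was 0.68 on control diet and -0.06 on HFD. Genes of this list share a regulator, so they are not independent of each other, and no test over the list was made.

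Hmgcs1, which makes HMG-CoA near the start of the pathway, was at 142, 115, 307, 171 and 190 CPM in control mice. In Pio mice it was at 566, 305, 485, 439 and 380 CPM. In HFD mice it was at 428, 305, 236, 129 and 233 CPM, and in HFD-Pio mice at 241, 300.3, 212, 293 and 169 CPM. Every Pio mouse lay above every HFD-Pio mouse, while control mouse 833 and HFD mice 826 and 827 reached the Pio range. The difference for Hmgcs1 was -1.36 (standard error 0.39, 95% interval -2.18 to -0.55, adjusted p = 0.180). It was -1.62 without control mouse 833, and Gm48342 overlaps Hmgcs1 on the opposite strand.

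Later steps of the pathway had similar estimates. Mvk, mevalonate kinase, had -1.31 (adjusted p = 0.127), with 12.0 to 31.3 CPM in control, 23.4 to 34.8 in Pio, 22.0 to 42.1 in HFD and 17.2 to 22.7 in HFD-Pio mice. Fdft1, squalene synthase, had -1.42 (adjusted p = 0.127) and its highest level in Pio mice, at 116 to 182 CPM. Sqle, which oxidises squalene, had -1.21 (adjusted p = 0.246), and Dhcr7, the last reductase, had -1.07 (adjusted p = 0.176). Ebp, a sterol isomerase, had a difference of -0.06. Insig1 had one of 0.29 (adjusted p = 0.740), and Insig1, which holds SREBP2 back in the endoplasmic reticulum, was the 1 member above 0. Srebf2, which encodes SREBP2 itself, had -0.44 (adjusted p = 0.377).

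To show single mice, the median over the 25 genes of each mouse's log2 CPM, centred on the mean of the 20 mice, was taken. It was -0.95 to 0.51 in control, 0.29 to 0.89 in Pio, -0.90 to 0.10 in HFD and -0.49 to 0.08 in HFD-Pio mice. All 5 Pio mice lay above all 10 mice on HFD, and control mice spread across both. The median difference of the list was between -0.80 and -0.61 with each mouse left out, and -0.65 without the 3 libraries that stood apart. DESeq2 called 4 of the 25, Dhcr7, Fdft1, Hmgcs1 and Mvk, all lower, where it called 0.885% of all genes as lower. Limma with sample weights called these 4 and Cyp51, all lower, where it called 3.03% of all genes as lower.

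Mvk, a member of this list, and Mmab, one of the 10 genes named above, are neighbours on chromosome 5 that run in opposite directions, with 208 bases between the 2 genes (Mvk from 114444269 on the plus strand, Mmab up to 114444060 on the minus strand). Their shared region was searched because both had a negative difference. The letters CCAAT, bound by NF-Y, a partner of SREBP2, occurred on either strand at the same 5 places in both promoter windows. The letters were found in 37.4% of all promoters and in 16 of the 20 promoters held for the cholesterol list. One place per gene is printed with the CCAAT letters in capitals, on the strand of the gene. For Mvk it is at chr5:114444207-114444235, plus strand, -50 from the RefSeq start. For Mmab it is at chr5:114444084-114444112, minus strand, -73 from the RefSeq start, which differs from the GENCODE one.
Mvk: ttaatgtttgacCCAATctgtaaaggagc
Mmab: gagtgccccaggCCAATaggaaacagcga
A fixed spelling of the sterol regulatory element was found in 0 of these 20 promoters and in 0.234% of all. The perfect DR1 repeat bound by PPAR and RXR was found in 0 of the 20 and in 0.0396% of all. It was also found in 0 of the 26 promoters held for the bile acid list, which lacked that of Cyp7a1. A match describes the letters in a window and does not show binding.

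The study took 7 genes from earlier reports of PPARγ regulation in liver. It described them as induced by Pio in these same WT mice on control diet, so they are no independent sample. On HFD it described all but Fabp4 and Cav1 as induced, and took this to implicate diet as a modifier. Its RT-qPCR results were described as highly concordant with the sequencing. Of these 7, 0 were called by edgeR, DESeq2 or limma and 2 had an unadjusted p under 0.05. Their differences were negative in 5 and positive in 2, with a median of -0.66. Cav1 had a difference of -0.84 (standard error 0.52, adjusted p = 0.431). Fabp4, a fatty acid carrier, had a difference of -2.42 (standard error 0.76, adjusted p = 0.201), which was -1.51 without HFD mouse 827 and -1.20 by limma with sample weights. It was at 6.86, 8.80, 9.38, 11.6 and 6.47 CPM in control and 96.6, 52.4, 29.6, 51.4 and 189 CPM in Pio mice, and at 7.94, 35.6, 9.10, 3.07 and 6.53 CPM in HFD and 22.0, 41.9, 9.36, 22.1 and 16.8 CPM in HFD-Pio mice. Control and Pio mice did not overlap in Fabp4, whereas HFD mouse 827 lay inside the HFD-Pio range. Cfd, the complement protease adipsin, reached 39.5 to 392 CPM in Pio and 81.2 to 456 in HFD-Pio mice from 0.442 to 3.75 CPM in control and 2.93 to 36.4 in HFD mice. On the log2 scale its difference was -2.19 (adjusted p = 0.292), while on the scale of CPM it was 64.3 (standard error 89.8), of the opposite sign. The log2 difference of Cfd was -0.89 without HFD mouse 827 and -0.80 by limma with sample weights. Pparg itself had a difference of -0.62 (standard error 0.24, adjusted p = 0.232), with 5.62 to 10.2 CPM in control and 10.5 to 13.9 in Pio mice, and 8.54 to 12.2 in HFD and 7.27 to 12.2 in HFD-Pio mice.

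Fabp4 and Cfd are also made by adipocytes, and the adipocyte markers were examined beside them. Of the 8 markers 4 passed the filter, 0 were called by edgeR, and their median difference was -0.63. All 4 differences were negative, and 2 had an unadjusted p under 0.05. DESeq2 and limma with sample weights each called 1 of the 4, Car3, as lower (-0.93, adjusted p = 0.0485, and -0.80, adjusted p = 0.0340). These fits called 0.885% and 3.03% of all genes as lower. The summed level of the 4 markers was 1062 to 1896 CPM in control, 2388 to 4452 in Pio, 2802 to 4914 in HFD and 3986 to 5073 in HFD-Pio mice. Nearly all of it came from Car3, which hepatocytes also make. The other tested markers were Adrb3, at 4.69 to 30.5 CPM, Lipe, at 12.2 to 26.8 CPM, and Retn, at 4.11 CPM at most, in Pio mouse 842. Adipoq, Lep, Plin1 and Ucp1 did not pass the filter, and were at most at 0.127, 0.138, 0.0876 and 0.0503 CPM in any mouse. Adipoq was at 0 in 7 mice, Lep in 17, Plin1 in 15 and Ucp1 in 19.

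The genes encoded by mitochondrial DNA had the most negative median of the 23 pathway lists. Of 13 genes, 7 passed the filter, and the other 6 were at 0.302 CPM or less in every mouse. Among these, mt-Co2, mt-Atp6 and mt-Co3 were at 0 in 19 of the 20 mice, and mt-Atp8 and mt-Nd4l in all 20. Only uniquely aligned, unambiguous reads were counted, so such values need not be the levels of these RNAs. Whether that counting also affected the 7 genes was not tested, and mt-Nd5 overlaps mt-Nd6 on the opposite strand. All 7 differences were negative, with a median of -1.56, 0 were called by edgeR, and 5 had an unadjusted p under 0.05. The mt-Nd5 gene, for a subunit of complex I, had a difference of -1.98 (standard error 0.50, adjusted p = 0.140), and mt-Co1, for a subunit of complex IV, one of -0.39 (adjusted p = 0.590). The level of mt-Nd5 was 4410 to 7174 CPM in control mice and 5006, 16264, 13804, 12723 and 42109 CPM in Pio mice, and 6317 to 11181 in HFD and 5303 to 7746 CPM in HFD-Pio mice. Pio mouse 841 lay within the control range and Pio mouse 845, one of the 3 libraries that stood apart, was the highest. Without mouse 845 the median of the list was -1.07 and the difference of mt-Nd5 was -1.40. DESeq2 called 1 of the 7, mt-Nd5, as lower (adjusted p = 0.0121), where it called 0.885% of all genes as lower. Nuclear genes of oxidative phosphorylation, the other genome's share of the same complexes, had a median of -0.01 over 79 tested genes, 40 of them negative, and genes of the mitochondrial ribosome had a median of 0.08 over 74. Both of these medians took either sign with 1 mouse left out. In both lists 0 genes were called by edgeR and DESeq2. Limma with sample weights called 5 of the 74 mitochondrial ribosome genes, all higher (Mrpl28, Mrpl36, Mrps14, Mrps18c and Mrps6, 0.63 to 1.29). The share called was close to the 6.75% that this fit called over all genes, 3.72% higher and 3.03% lower.

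In the remaining pathway lists 0 genes were called by edgeR, and most medians lay within the range that holds the middle part of all genes (-0.28 to 0.29, the quartiles). Of all genes tested 48.1% had a negative difference, and 8.23% were lower and 7.38% higher at an unadjusted p under 0.05. Interferon-response genes were negative in 24 of 29 (median -0.29), with 4 lower at an unadjusted p under 0.05, among them Gbp3 (-0.83, adjusted p = 0.206), a guanylate-binding protein. Receptors of the PPAR, RXR and LXR families and their cofactors were negative in 11 of 12 (median -0.25). Genes of the response to oxidants and of glutathione metabolism were positive in 13 of 18 (median 0.25), with Ugdh, which makes UDP-glucuronic acid, at 0.89 (adjusted p = 0.166). Genes of glycolysis and gluconeogenesis were positive in 20 of 29 (median 0.23), although Aldoc, an aldolase and the member with the lowest p, had -1.36 (adjusted p = 0.166). Ugdh and Aldoc were called by DESeq2 and by limma with sample weights. In the unfolded protein and integrated stress response 19 of 30 were positive (median 0.18), and Trib3, a pseudokinase induced by stress, had 2.50 (adjusted p = 0.196), which was 1.06 without control mouse 832.

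The other medians were -0.20 for targets of growth hormone and STAT5, -0.18 for xenobiotic cytochrome P450s, -0.12 for the tricarboxylic acid cycle, -0.09 for acute phase proteins, -0.09 for peroxisome biogenesis, -0.01 for omega hydroxylases and thioesterases, 0.05 for the cell cycle and, over 13 immediate early genes, 0.43. The last of these was 0.06 without control mouse 832 and 0.03 by limma with sample weights. With each mouse left out, the cell cycle median ranged from -0.21 (without control mouse 832) to 0.17, and those of the tricarboxylic acid cycle, acute phase proteins and omega hydroxylases also took either sign.

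Lists for lipid handling, the main known field of PPARγ, had medians near 0. They were -0.03 for lipid droplet proteins and lipases (16 genes), -0.16 for fatty acid uptake and activation (18), 0.02 for triglyceride synthesis (15), -0.11 for fatty acid oxidation and ketogenesis (32) and 0.03 for de novo lipogenesis (19). The 7 PPARγ-regulated genes taken up by the study, Fabp4 and Cfd among them, were not members of these lists. Their own list had a median of -0.66, with 5 negative and 2 positive differences. With each mouse left out, the medians of lipid droplet proteins, triglyceride synthesis and de novo lipogenesis took either sign. Named by the lowest p of their lists, Hilpda, which inhibits lipolysis at lipid droplets, had 1.49 (adjusted p = 0.196), Cav2, a caveolin, 1.37 (0.250), Gpd1, which makes glycerol-3-phosphate, -0.70 (0.238), Acat1, a mitochondrial thiolase, -0.55 (0.222) and Elovl5, an elongase of polyunsaturated fatty acids, 0.86 (0.269). None of these 5 was called by edgeR, DESeq2 or limma with sample weights. Also not called by edgeR were Cyp4a32 (-0.86), Cox7a2l (-0.56), Mrps25 (-0.80), Pdk2 (-1.33), Cat (-1.04), Onecut1 (-3.40), Cyp3a11 (1.69), Hpx (0.72), Cdkn1a (1.05) and the immediate early gene Nr4a1 (2.00), each the member with the lowest p of its list. For Onecut1, a hepatocyte transcription factor, single mice ranged from 15.9 to 108 CPM in control, 14.9 to 225 in Pio, 29.4 to 235 in HFD and 9.81 to 46.1 in HFD-Pio mice, so that all 4 groups overlapped. Onecut1 was called as lower by DESeq2 (adjusted p = 0.0475) and by limma with sample weights (adjusted p = 0.0485). DESeq2 also called Nr4a1 (adjusted p = 0.0480) and limma with sample weights Cat (-0.78, adjusted p = 0.0317) and Cyp3a11 (1.33, adjusted p = 0.0307). Without control mouse 832 the edgeR differences of Cyp3a11 and Cdkn1a were 1.03 and 0.63.

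**Figure D4:**
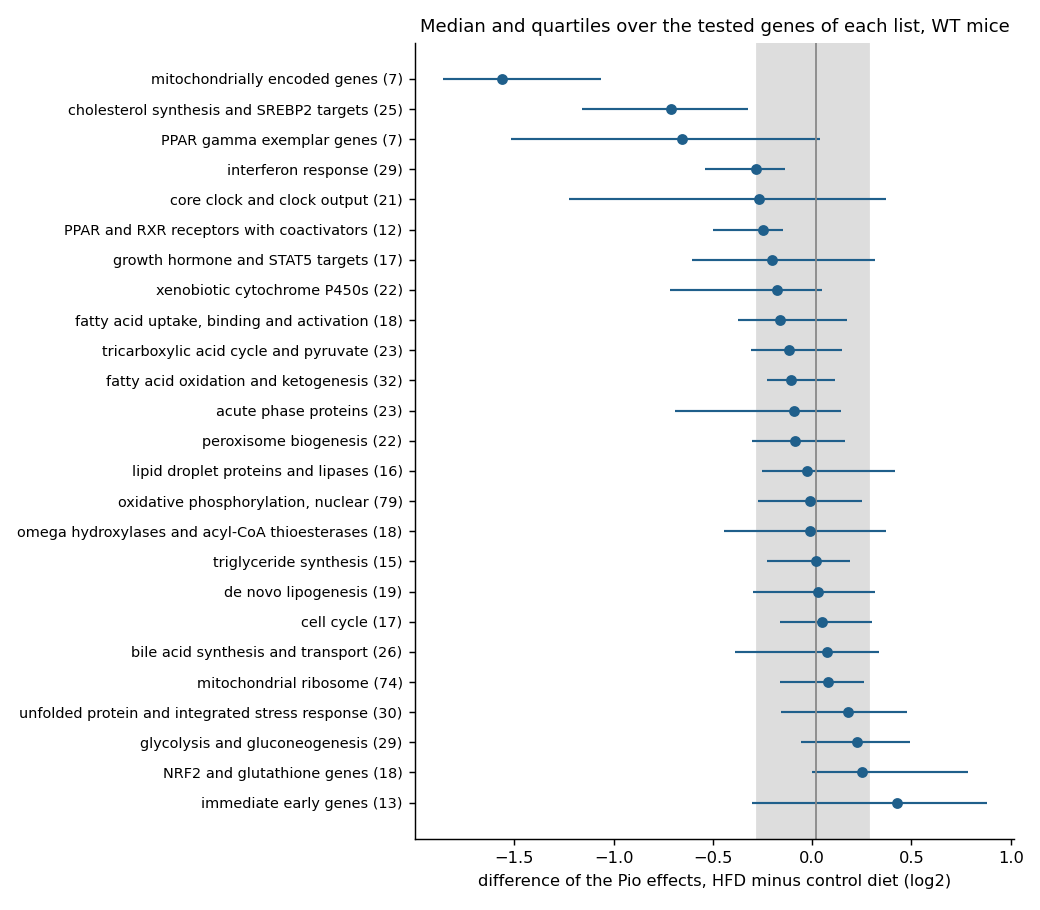
Median (points) and quartiles (lines) of the difference of the Pio effects between the diets over the tested genes of each of 25 lists in WT mice, with the number of tested genes in brackets. The grey band and line are the quartiles and median of all 12447 tested genes; mitochondrially encoded genes (-1.56) and cholesterol synthesis (-0.71) have the most negative medians.

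Of the markers of other cell types, 0 were called by edgeR. The median difference was -0.04 over 11 macrophage and Kupffer cell markers, 0.07 over 9 endothelial markers, 0.22 over 5 cholangiocyte markers and 0.21 over 6 red blood cell markers. For 10 tested markers of stellate cells and fibroblasts it was 0.82, and -0.23 without control mouse 832. The cholangiocyte median was -0.22 without the same mouse, and the red blood cell median was -0.20 without control mouse 834. Of the 13 markers of pancreatic acinar cells 1 passed the filter, and of the 7 of skeletal muscle 0 did. The 3 tested markers of lymphocytes had a median of -0.92 (-1.20 to -0.76 with each mouse left out) and those of neutrophils one of 0.13 (-0.64 to 0.56). The macrophage and endothelial medians also took either sign with 1 mouse left out. Limma with sample weights called 2 of the 3 lymphocyte markers, Cd4 (-1.22, adjusted p = 0.0421) and Cd79a (-2.04, adjusted p = 0.0457), both lower. That fit called 3.03% of all genes as lower. Periportal and pericentral hepatocyte genes, which divide the lobule into zones and of which Cyp7a1 is expressed mainly in the pericentral one, had medians of 0.23 and -0.15 over 9 genes each. The pericentral median took either sign with 1 mouse left out. Limma with sample weights called 2 of the 9 periportal genes, Pck1 (1.25, adjusted p = 0.0259) and Sds (1.28, adjusted p = 0.0255), both higher. It called 3.72% of all genes as higher.

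Whether the diet dependence differed between WT and KO mice was tested in 1 model of all 40 mice. Cyp7a1 was again the 1 gene called of 12942 (0.00773%), with a WT difference minus KO difference of -4.73 (standard error 0.81, adjusted p = 0.0123). In KO mice the difference of the Pio effects between the diets had the opposite sign, 1.64 (standard error 0.56), and was not called by edgeR (adjusted p = 0.339). Mean Cyp7a1 in KO mice was 133 ± 90.7 CPM (SD, n = 5) in control, 48.0 ± 22.0 in Pio, 203 ± 126 in HFD and 229 ± 51.9 in HFD-Pio mice. The KO control mice were at 121, 57.2, 282, 63.2 and 140 CPM, all above every WT control mouse. The count tables were deposited separately for each genotype, so a difference in level between genotypes cannot be told apart from one between the tables, while the difference of differences is free of a constant shift.

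Within KO mice 0 genes were called for the difference between the diets by edgeR, with 1562 (12.1%) at an unadjusted p under 0.05. The cholesterol list had a negative difference in 22 of 25 genes in KO mice too (88.0%, against 54.1% of all genes), with a median of -0.73. For this list the WT minus KO difference had a median of -0.25, 0 genes were called by edgeR and 2 of the 25 had an unadjusted p under 0.05, a level reached by 1680 of the 12942 genes (13%). For Mvk the KO difference was -1.09, and its WT minus KO difference was not called by edgeR. The 7 mitochondrially encoded genes had a KO median of 0.29 and 0 negative values, and 5 of the 7 had an unadjusted p under 0.05 for WT minus KO, with 0 called by edgeR. Bhmt had a KO difference of 0.92 and a WT minus KO difference of -2.57 (standard error 0.71, adjusted p = 0.203).

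Across all genes tested in WT mice, 1942 (15.6%) had an unadjusted p under 0.05 for the difference between the diets, 1024 lower and 918 higher. The median difference was 0.02 and the central 90% of genes lay between -0.82 and 0.73, while the 95% interval of a typical gene reached 0.57 to either side. How many genes passed the adjusted threshold depended on the tool. DESeq2 called 135 (25 higher and 110 lower), and limma with sample weights, the kind of fit the study used, called 840 (463 higher and 377 lower, 6.75%), with weights from 0.182 for control mouse 832 to 3.59 for HFD-Pio mouse 839. Limma without sample weights called 3. Of the 135 genes of DESeq2, 124 were among the 840. Without Pio mouse 841 edgeR called 115 genes, 51 higher and 64 lower, and 114 of them were among the 840.

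Among the genes called by limma with sample weights, the control group was the one set apart in 149 of 840, and in 40 of the 135 called by DESeq2. Most genes called by either tool thus set another group apart, and the same count was not made over all genes tested. The weighted fit also called members of lists in which edgeR called none. Over all genes it called 3.03% as lower and 3.72% as higher. It called 6 lower and 0 higher of the 29 interferon genes, 3 lower and 0 higher of the 7 mitochondrially encoded genes, and 6 higher and 1 lower of the 79 nuclear genes of oxidative phosphorylation. The share called of the last list was close to the 6.75% over all genes. Of the 32 genes of fatty acid oxidation and ketogenesis it called 3, all higher (Acads, Acadvl and Echs1), of the 29 of glycolysis and gluconeogenesis 3 higher and 1 lower, and of the 22 of peroxisome biogenesis 2 in each direction. In each of the other pathway lists it called 2 genes or fewer, apart from the cholesterol, bile acid and mitochondrial ribosome genes given above. It called Pparg as lower (-0.91, adjusted p = 0.0194), G6pc, the last enzyme of glucose output, as higher (1.42, adjusted p = 0.0194), and Srebf1, which drives lipogenesis, as higher (0.83, adjusted p = 0.0373). Over all genes the Pio effects on the 2 diets had Pearson's r = 0.37 and Spearman's rho = 0.21, given as a description across genes that come from the same 20 libraries. The effects had the same sign in 56.4% of genes.

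**Figure D5:**
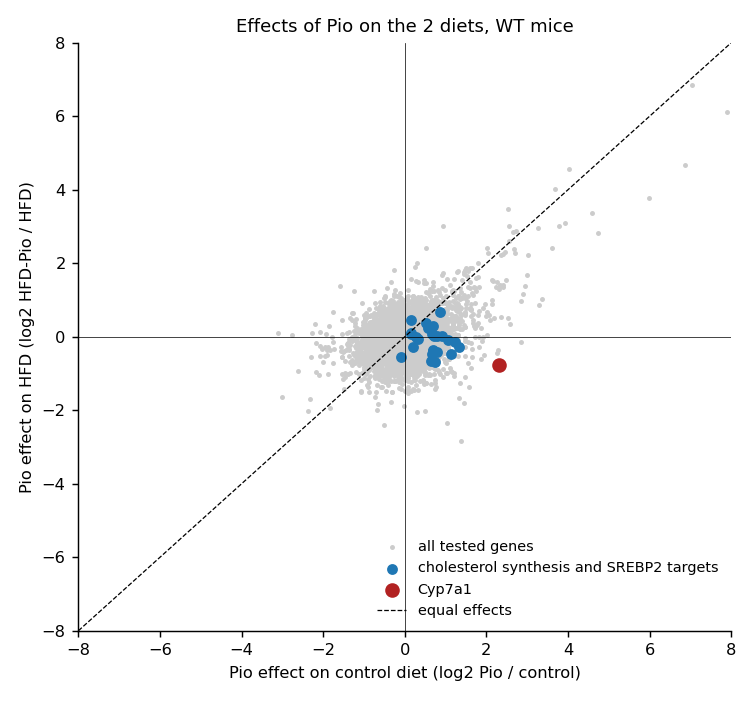
The Pio effect on HFD (vertical axis) against that on control diet (horizontal axis), both as log2 ratios, for the 12447 genes tested in WT mice, with equal effects on the dashed line. Cyp7a1 (red) lies at 2.31 on control diet and -0.76 on HFD, and the cholesterol genes (blue) lie mostly to the right of 0 and below the line.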

How the data were processed

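Total liver RNA was poly-A selected and sequenced. The authors aligned reads to GRCm38 with STAR 2.0.4b and counted uniquely aligned, unambiguous reads with Subread featureCounts 1.4.5. The deposited values are raw counts per gene, 1 column per mouse and 1 table per genotype, and GC content in percent as deposited, which was used only as a check (Spearman's rho with the difference -0.013 across genes). Whether counting used strand is not given in the sources used here. Columns without a sample numbered 0.

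Of 41264 lines in the WT table, 574 repeated a gene (0 with other values) and were dropped, and 355 rRNA genes were removed. The filter kept genes that reached 1 CPM in 5 or more WT libraries. Counts were fitted in edgeR 4.0.16 (R 4.3.3) with TMM factors and robust quasi-likelihood, 1 mean per group, and p-values were adjusted by Benjamini-Hochberg over all genes tested, with calls at 0.05 or less. The WT minus KO test used all 40 libraries. DESeq2 1.42.0, limma 3.58.1 (voom, with and without sample weights), other filters, other scaling, thinned counts and leaving out each mouse were the alternatives. Plots and summaries used Python 3.11.15. The fit was tested on simulated counts with changes planted in the HFD-Pio group, but with no other group effects and no outlying mice. That test does not bear on how many genes were called here. Levels are CPM with TMM factors of the WT libraries (KO levels from the 40). Coordinates and overlaps came from GENCODE M21 for GRCm38. WT libraries of 15789401 to 49860981 counts set the precision of low levels.

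Lists were written by symbol (759 of 760 entries matched). By rule, the text names up to 10 called genes per direction whose mean was 5 CPM or more, and for each pathway or library-state list up to 2 called members or else the member with the lowest p and a mean of 1 CPM or more. This gave 25 genes, and 27 were added after the data were seen. Some list members are not reported here by name. The members and lists were chosen with earlier results of these data known.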

Additional observations from a re-analysis of the deposited data

Results flagged for a closer look

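A cut-off that gives about 1 in 20 groups by chance for independent, normally distributed values was used to find a mouse far from the other 4. It was applied to CPM without logs and to the same 20 mice for every gene, so that rate need not hold here. Among 100 groups of 5 mice examined (the 4 groups for each of the 25 genes named by the rule), 11 held such a mouse. In control mice these were mouse 833 for Cyp7a1 (18.1 CPM) and Mvk (31.3 CPM), mouse 832 for Trib3 (98.9 CPM) and Cyp3a11 (1169 CPM), all high, and mouse 831 for Cav2 (0.482 CPM), low. In Pio mice they were mouse 841 for Trib3 (20.0 CPM) and mouse 845 for Hlf (132 CPM), both high. In HFD mice, mouse 827 was high for Fabp4 (35.6 CPM), Cyp3a11 (233 CPM) and Cdkn1a (124 CPM), and mouse 829 was high for Pdk2 (716 CPM). No HFD-Pio mouse stood out in this way for these 25 genes. The Pio effect on Cyp7a1 differed between the diets by -3.08 on the log2 scale in the test of the difference itself, and this was the result with a called difference between groups.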

How the results depend on the processing

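Cyp7a1 was called in all 31 alternatives. The number of genes called, 1 in the analysis reported, was 2 without a filter and 2 with a mean of at least 5 CPM, 135 with DESeq2, 840 with limma and sample weights, 3 with limma without them, 10 in the model of all 40 libraries and 4 without the 3 libraries that stood apart, an alternative chosen after seeing the data, as was keeping rRNA genes (1 called). Leaving out each mouse in turn gave 1 to 115 genes: 115 without Pio mouse 841, 10 and 5 without control mice 833 and 831, 3 without control mouse 835 and 2 each without Pio mouse 845, HFD mouse 829 and HFD-Pio mouse 836. Called genes that set the control group apart numbered 2, 2, 40, 149, 3 and 3 (no filter, 5 CPM, DESeq2, limma with and without weights, 3 libraries out) and 1 to 15 with each mouse left out. No such count was made over all genes tested. Pathway lists with a negative median numbered 15 of 23, and 10 to 17 in the alternatives. For WT minus KO, 1 gene was called, 27 with DESeq2 and 697 with limma and sample weights, and 1 to 8 with each of the 40 mice left out (8 without KO Pio mouse 13, 6 without Pio mouse 841, 3 without HFD mouse 828, 2 each without control mouse 832 and KO control mouse 5). The causes were not tested. Of the named genes, Cyp27a1 changed sign with sample weights (0.18), without control mouse 832 (0.0814), Pio mouse 841 (0.019) or the 3 libraries (0.0572), with a range of -0.213 to 0.0814 over single mice left out, and Insig1 without control mouse 833 (-0.0313, range to 0.449). No paired analysis was possible because the mouse numbers differ between all groups. With 5 mice per group, a typical gene's difference had a 95% interval of 0.57 to either side on the log2 scale.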
